A study of Mus musculus with 6 samples.

Results

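The NADPH oxidase and superoxide dismutase genes examined here were Cybb, Cyba, Ncf1, Ncf4, Rac2, Sod1, Sod2 and Cat, 8 genes of 22180 with a row of their own in the value table. A gene entered through a row whose annotation names that gene alone. Each of the 8 was found under its own symbol and had 1 such row, so no choice between rows was needed. The cells were BV2 (BV-2), a mouse microglial line transformed with a recombinant retrovirus that carries raf and myc oncogenes, which makes it a proliferating stand-in for brain microglia. The 3 arrays labelled Control held RNA from resting cells. The other group, labelled LPS, consisted of 3 arrays of cells exposed for 24 h to 1 µg/mL lipopolysaccharide from Escherichia coli O111:B4, a bacterial cell wall component sensed through Toll-like receptor 4. Both groups were of the same line and, per the labels, of the same low-serum plating medium. The labels number the replicates but do not call them separate cultures, and p-values therefore measure the spread among arrays, part or all of which may be technical.

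The phagocyte NADPH oxidase is a membrane enzyme that passes electrons from NADPH to oxygen and releases superoxide. Its catalytic chain, encoded by Cybb, sits in the membrane with the chain encoded by Cyba, and the enzyme becomes active when cytosolic subunits, among them those encoded by Ncf1 and Ncf4, and the GTPase Rac2 join it. Superoxide dismutases turn superoxide into hydrogen peroxide, in the cytosol (Sod1) and in mitochondria (Sod2), and catalase (Cat) breaks hydrogen peroxide down. In microglia and macrophages the oxidase is known for the oxidative burst against microbes.

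RefSeq promoter sequences were at hand for 6 of the 8 genes, and the 250 bases before the annotated start are shown for Cybb, the one gene of the 8 with an adjusted p under 0.05 over all rows, a call lost in 10 of 15 alternative fits, and for Sod2 and Sod1, dismutases with unlike values after LPS. They are written 5′ to 3′ on the strand of the gene. Capitals mark matches to the interferon response type (GAAA, any 2 bases, then GAAA again), GAGGAA (the core bound by PU.1), TGACTCA (AP-1), TGACNNNGC (antioxidant response) or the NF-kB consensus, each searched on both strands.
Cybb, GRCm38.p6 chrX:9469325-9469574, - strand: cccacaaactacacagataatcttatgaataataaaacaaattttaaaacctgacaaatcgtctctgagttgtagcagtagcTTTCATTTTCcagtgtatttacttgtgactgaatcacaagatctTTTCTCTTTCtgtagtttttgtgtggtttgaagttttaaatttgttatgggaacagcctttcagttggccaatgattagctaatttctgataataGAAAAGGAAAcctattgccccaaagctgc
Sod2, GRCm38.p6 chr17:13007589-13007838, + strand: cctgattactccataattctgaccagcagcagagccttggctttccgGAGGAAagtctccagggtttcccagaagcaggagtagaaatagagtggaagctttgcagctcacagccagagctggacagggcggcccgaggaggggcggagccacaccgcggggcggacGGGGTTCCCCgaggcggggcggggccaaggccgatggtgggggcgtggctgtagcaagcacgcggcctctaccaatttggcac
Sod1, GRCm38.p6 chr16:90220512-90220761, + strand: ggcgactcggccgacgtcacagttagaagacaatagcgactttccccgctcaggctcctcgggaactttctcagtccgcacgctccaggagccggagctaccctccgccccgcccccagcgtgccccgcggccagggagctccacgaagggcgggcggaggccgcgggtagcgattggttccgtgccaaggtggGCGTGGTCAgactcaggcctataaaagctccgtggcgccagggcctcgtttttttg
The Cybb sequence held no match to the 4 motifs other than the interferon response type, in the letters searched. Of that type it held 3 matches, at 168 to 159, 124 to 115 and 29 to 20 bases before the start. At least 1 such match was present in 3.0% of 32851 promoter windows of the same length, and 4 windows held 3 or more. The cut of 3 is the count of Cybb itself, and the windows were not matched for base composition. This start is that of 1 annotated transcript of Cybb, and the RefSeq gene span begins 18442 bases further upstream. The Sod2 sequence held an NF-kB consensus match at 83 to 74 bases before the start, a motif found in 7.3% of windows, and a GAGGAA match at 203 to 198, found in 23.3%. The Sod1 sequence had a single capitalised match, to TGACNNNGC on the opposite strand, which 10.2% of windows also held. Among the windows not shown, that of Ncf1 held 1 match of the interferon response type. That of Cat held 1 NF-kB consensus match and 1 GAGGAA match, and that of Cyba held no match to these motifs. In base composition Cybb stood at 34.0% G and C against 63.6% for Sod2, 66.4% for Sod1 and a median of 52.4% over all windows. No capitalised match overlaps another, and each match is a description of letters only.

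Of the 8 genes, Cybb alone rose after LPS at an adjusted p under 0.05 in limma, by 1.30 on the log2 scale, and 7 did not pass. Of all rows in the series 0.193% were called, each of them higher. Sod2 had the largest log2 fold change of the 8, at 1.99, with an adjusted p = 0.12 in limma. Values of 6 of the 8 genes on every LPS array lay above those on every control array, a pattern found in 7.74% of all rows, and 0 of the 8 lay wholly below, against 3.48%. The exceptions were Cyba and Sod1, whose groups overlapped. The median log2 fold change of the 8 was 0.91, beside 0.03 over the 22180 genes and 0.15 over rows with a mean of 5 or more. All rows include many of low signal, and no share among rows as bright as the 8 was computed. At an unadjusted p under 0.05 in limma 4 of the 8 were higher and 0 lower, against 4.98% of rows higher and 1.40% lower. As the 8 were listed with earlier results of these data known, these shares describe the list and are no test of it.

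**Figure D1:**
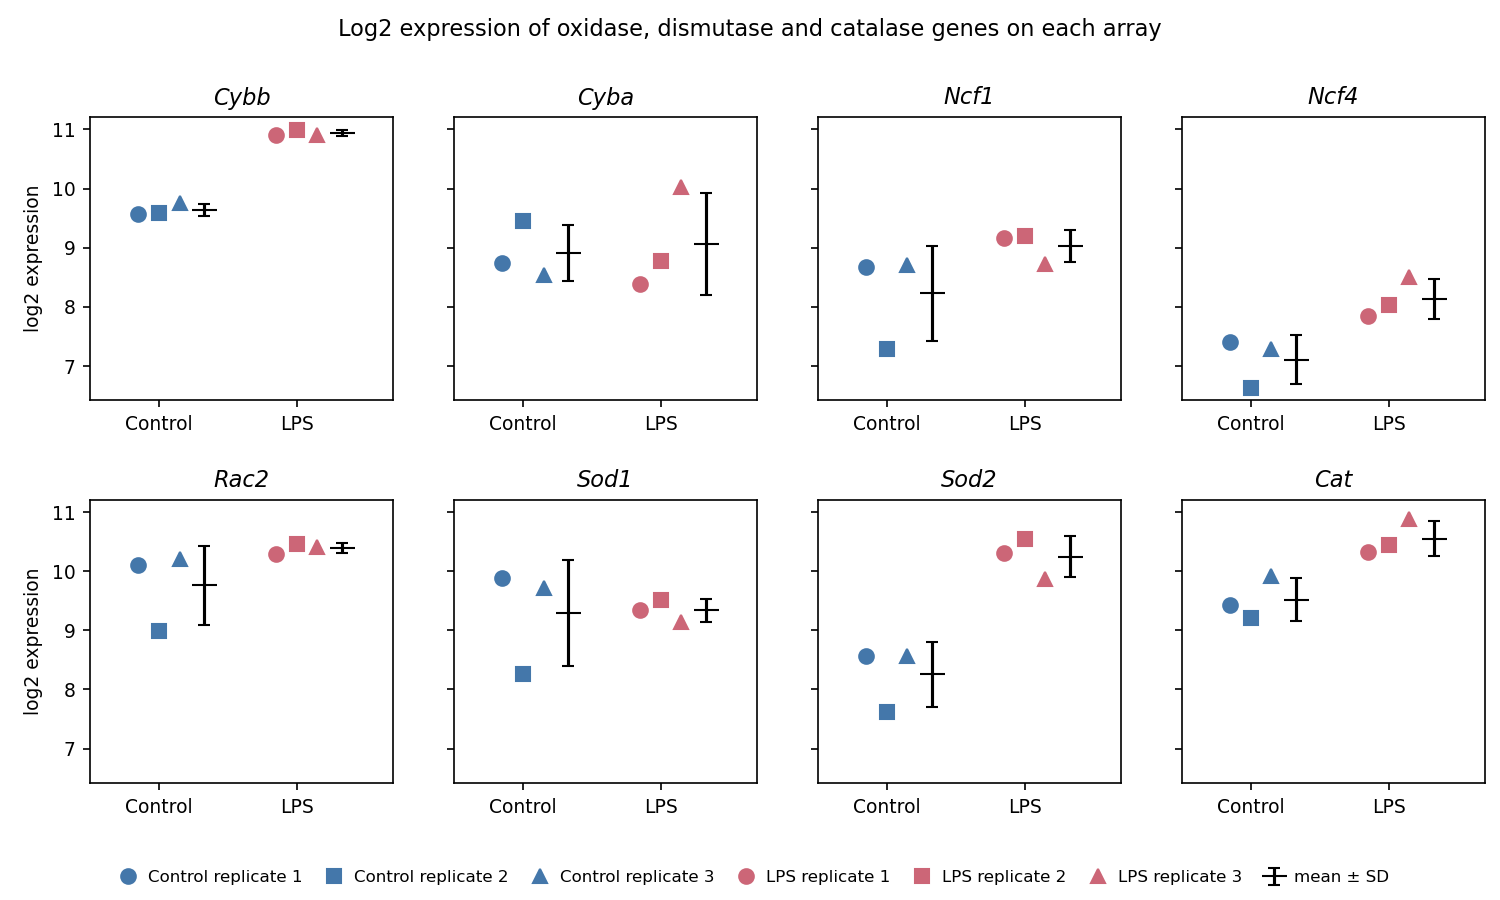
Log2 expression (vertical axis) of each of the 8 genes on the 3 control arrays (blue) and the 3 LPS arrays (red), with the marker giving the replicate number and the black bar the mean ± SD of 3 arrays. Cybb arrays lie close together within each group and far apart between groups, while control replicate 2 (blue square) is the lowest array for 6 of the 8 genes.

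The 8 rows lay above background, taken as 3.08 on the log2 scale, the 95th percentile of mean levels of 1443 rows for olfactory, vomeronasal and taste receptors. Arrays had medians of 2.88 to 2.97. Rows with a mean of 5 or more were lower on control replicate 2 than on the other control arrays, by a median of -0.44. For the 8 genes that median was -0.83, and 6 of them had their lowest value of all 6 arrays there. Rows at this level had a median log2 fold change of 0.15, which was -0.03 after quantile normalization and 0.01 without control replicate 2. Values without this array are therefore given for each of the 8 genes, and its part in the results beyond these values was not tested. As a check of the labels, Tnf went from 7.88 ± 0.65 to 10.60 ± 0.11 (SD, n = 3; limma adjusted p = 0.044) and Il1b from 3.63 ± 0.77 to 9.06 ± 0.32 (limma adjusted p = 0.0073). For Nos2, the inducible synthase of nitric oxide, means were 5.02 ± 0.65 and 8.19 ± 0.66 (limma adjusted p = 0.079). Of 12 microglia and macrophage markers 10 were above background, and Tmem119 and Sall1, both known from microglia in the brain, were not. Among the 10, P2ry12, Cx3cr1 and Aif1 were near that level, with means over all arrays of 3.65, 3.70 and 3.97. Of 8 neutrophil markers, a cell type rich in the oxidase, 0 were above background, and their summed log2 levels ran from 18.9 to 20.1 on the control arrays and from 18.2 to 19.7 on the LPS arrays. Markers above background numbered 1 of 11 for astrocytes, oligodendrocytes and neurons (Rbfox3) and 1 of 9 for lymphocytes and endothelium (Flt1). In RNA from whole cultures, a shift in the share of cells using a gene and a shift in RNA per cell cannot be told apart.

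Cybb (transcript cluster 17540154), the catalytic chain, had log2 values of 9.57, 9.58 and 9.76 on control replicates 1 to 3 and of 10.91, 10.99 and 10.91 on LPS replicates 1 to 3. The lowest LPS array was 1.15 above the highest control array. The mean went from 9.64 ± 0.11 to 10.93 ± 0.05 (SD, n = 3). This is 2.46-fold, or 1.30 on the log2 scale (SE 0.13, 95% interval 0.98 to 1.61, limma adjusted p = 0.029). Cybb was steady among replicates: its pooled SD of 0.08 was larger than that of 1.73% of the 231 rows within 0.5 of its mean level, whose median SD was 0.30. Control replicate 2, at 9.58, differed from the mean of the other controls by -0.08, so Cybb did not share the low value seen there for most of the 8 genes. The size of the change stayed between 1.26 and 1.36 with any 1 array left out, but the call was lost in each of these fits. The limma adjusted p was 0.19, 0.064 and 0.14 without control replicates 1, 2 and 3, and 0.11, 0.21 and 0.071 without LPS replicates 1, 2 and 3. The call was also lost after quantile normalization (limma adjusted p = 0.056) and with an intensity trend (limma adjusted p = 0.070), and it was kept in the 3 fits with fewer rows tested (limma adjusted p = 0.0072 to 0.040).

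Cyba (17513672), which encodes the membrane partner that stabilises the catalytic chain, had values of 8.74, 9.44 and 8.54 on the controls and of 8.39, 8.77 and 10.03 on the LPS arrays. The groups overlapped, since control replicate 2 was higher than LPS replicates 1 and 2, and LPS replicate 3 was the highest of all. The mean of 8.91 ± 0.47 became 9.06 ± 0.86 (SD, n = 3). The difference of 0.15 log2 units had a 95% interval of -0.93 to 1.23 (limma adjusted p = 1.0). Cyba is the one gene of the 8 for which control replicate 2 was high, by 0.80 over the mean of the other controls. LPS replicate 3 was 1.45 above the mean of the other LPS arrays. Leaving out LPS replicate 3 gave -0.33, leaving out control replicate 2 gave 0.42, and leaving out both gave -0.06, so no direction can be given for Cyba.

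Among the cytosolic partners, Ncf4 (17312700), whose product binds a membrane lipid and assists assembly, had values of 7.40, 6.64 and 7.28 on the controls and 7.85, 8.04 and 8.51 on the LPS arrays. The groups did not overlap and were 0.45 apart at their nearest. The mean went from 7.11 ± 0.41 to 8.13 ± 0.34 (SD, n = 3). The change of 1.02 log2 units (SE 0.27) missed the threshold (limma adjusted p = 0.42). It was 0.79 without control replicate 2 and 0.60 without that array and LPS replicate 3. Ncf1 (17453288), the organiser that brings the cytosolic subunits to the membrane, had 8.68, 7.29 and 8.71 on the controls and 9.16, 9.20 and 8.73 on the LPS arrays. Here the nearest arrays of the groups were only 0.02 apart, and control replicate 2 was more than 1 log2 unit below every other array. Ncf1 differed by 0.80 log2 units (SE 0.40, limma adjusted p = 0.87), and without control replicate 2 it was 0.34.

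Rac2 (17319037), the GTPase of blood cells that switches the oxidase on, had values of 10.10, 8.99 and 10.20 on the controls and 10.29, 10.46 and 10.41 on the LPS arrays. As with Ncf1, the 5 arrays other than control replicate 2 lay close together, and the gap between groups was 0.09. With that array Rac2 differed by 0.63 log2 units (SE 0.32, limma adjusted p = 0.89), and without it by 0.24. The related GTPase Rac1, present in most cell types, went from 8.17 ± 0.05 to 8.09 ± 0.27 (SD, n = 3), and its groups overlapped.

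Sod2 (17333347), the manganese enzyme of mitochondria, had values of 8.57, 7.62 and 8.57 on the controls and 10.31, 10.55 and 9.87 on the LPS arrays. All 3 LPS arrays were above all controls, with 1.29 between the nearest, a wider gap than that of Cybb. The mean went from 8.25 ± 0.55 to 10.24 ± 0.35 (SD, n = 3), or 3.97-fold, which is 1.99 on the log2 scale (SE 0.31, 95% interval 1.24 to 2.73). It missed the threshold over all rows (limma adjusted p = 0.12). Within groups the arrays of Sod2 were farther apart than those of Cybb, with pooled SDs of 0.46 and 0.08. It passed with rows of 1 symbol only (limma adjusted p = 0.044) and with 1 row per gene (limma adjusted p = 0.041), but not with rows above background only (limma adjusted p = 0.052). It also passed with array weights (limma adjusted p = 0.049) and without control replicate 2 and LPS replicate 3 (limma adjusted p = 0.025). Without control replicate 2 alone the log2 fold change was 1.67.

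Sod1 (17326956), the copper and zinc enzyme of the cytosol, had values of 9.88, 8.26 and 9.72 on the controls and 9.35, 9.52 and 9.14 on the LPS arrays. The LPS arrays lay between control replicate 2 and the other controls. The mean was 9.29 ± 0.89 in controls and 9.34 ± 0.19 after LPS (SD, n = 3), 0.05 log2 units apart (SE 0.42, 95% interval -0.96 to 1.06, limma adjusted p = 1.0). The difference turned to -0.47 without control replicate 2 (limma adjusted p = 0.51), to -0.04 without LPS replicate 2 and to -0.14 after quantile normalization, so no direction can be given for Sod1. Cat (17388803), the peroxisomal enzyme that removes hydrogen peroxide, had values of 9.44, 9.21 and 9.92 on the controls and 10.33, 10.44 and 10.88 on the LPS arrays. Its groups were 0.41 apart at their nearest. The log2 fold change of Cat was 1.03 (SE 0.24, 95% interval 0.46 to 1.60, limma adjusted p = 0.34), and it was 0.87 without control replicate 2 and 0.86 without LPS replicate 3.

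**Figure D2:**
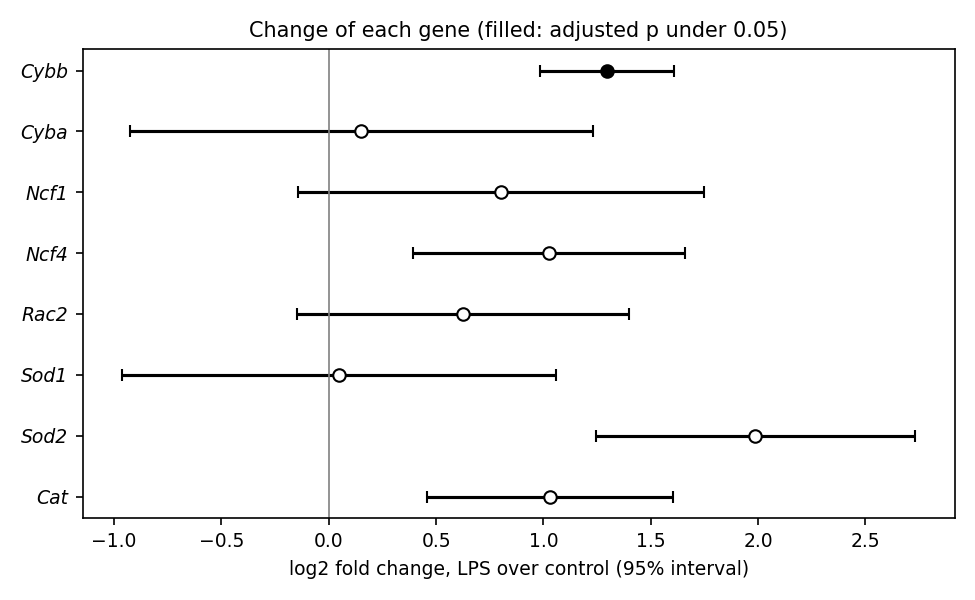
Log2 fold change of LPS over control (horizontal axis) for each of the 8 genes, with the 95% interval from limma and a filled point where the adjusted p was under 0.05. The interval of Cybb, 0.98 to 1.61, is the narrowest, and the intervals of Cyba, Ncf1, Rac2 and Sod1 include 0.

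**Figure D3:**
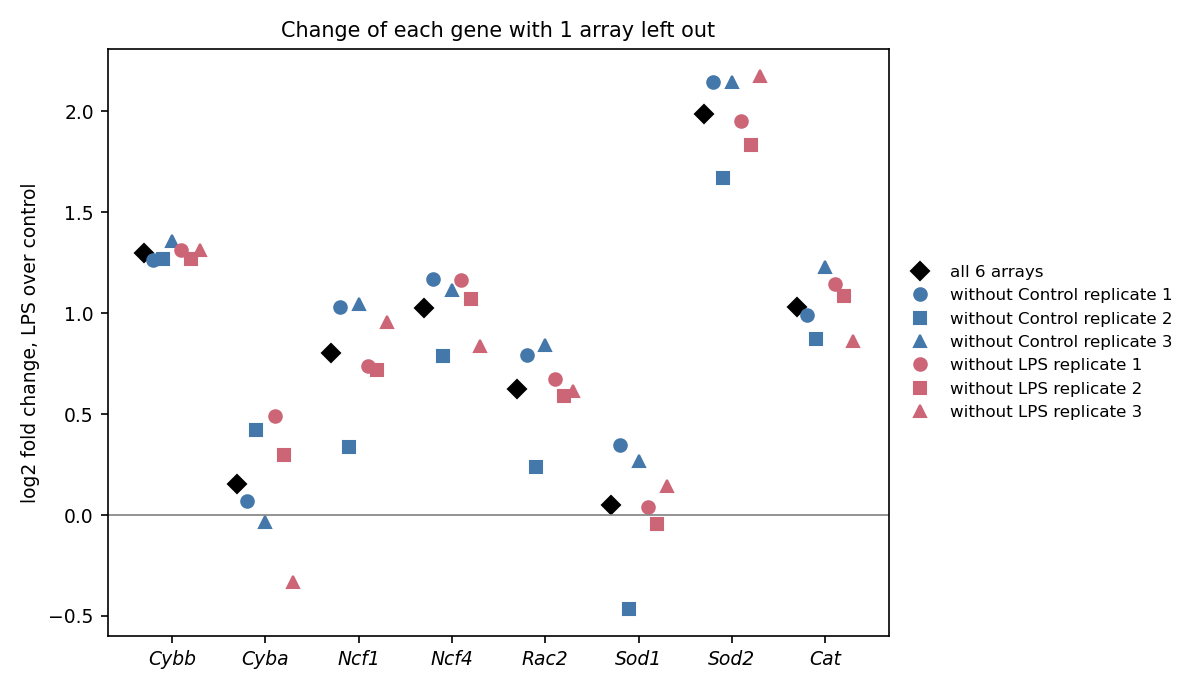
Log2 fold change of LPS over control (vertical axis) for each gene in the fit of all 6 arrays (black diamond) and in fits with 1 array left out (blue for a control array, red for an LPS array, the marker giving the replicate number). Cybb stays between 1.26 and 1.36, whereas Ncf1, Rac2 and Sod1 drop without control replicate 2 (blue square) to 0.34, 0.24 and -0.47.

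Whether the genes changed unequally was asked with log2 ratios within each array, which are free of any shift shared by both rows of an array. A ratio between different rows has no meaning as a level, so only its change between groups is given. For 6 pairs an exact two-sided permutation test over the 6 arrays was run, which cannot go below p = 0.1 with 3 arrays against 3. The ratio of Sod2 over Sod1 was -1.32, -0.64 and -1.15 on the controls and 0.96, 1.03 and 0.72 on the LPS arrays. These groups were far apart, with a change of 1.94 (exact permutation p = 0.1, the smallest possible, and 0.4 adjusted over the 6 pairs), and control replicate 2 was no longer the lowest array. The change was 2.14 without control replicate 2, against 1.67 for Sod2 alone. In the ratio of Cybb over Rac2, control replicate 2, at 0.60, fell among the LPS arrays, at 0.61, 0.53 and 0.50, while the other controls were at -0.53 and -0.44. The change of Cybb over Rac2 was 0.67 (exact permutation p = 0.3). It was 1.03 without control replicate 2, whose low value Cybb did not share. For Cybb over Cyba, Cybb over Ncf1, Cybb over Ncf4 and Sod2 over Cat the groups also overlapped, with changes of 1.14, 0.49, 0.27 and 0.96 and exact permutation p of 0.2, 0.4, 0.4 and 0.2. Without control replicate 2 the changes of these pairs were 0.85, 0.93, 0.48 and 0.80. Each of these 6 changes kept its sign with any 1 array left out.

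**Figure D4:**
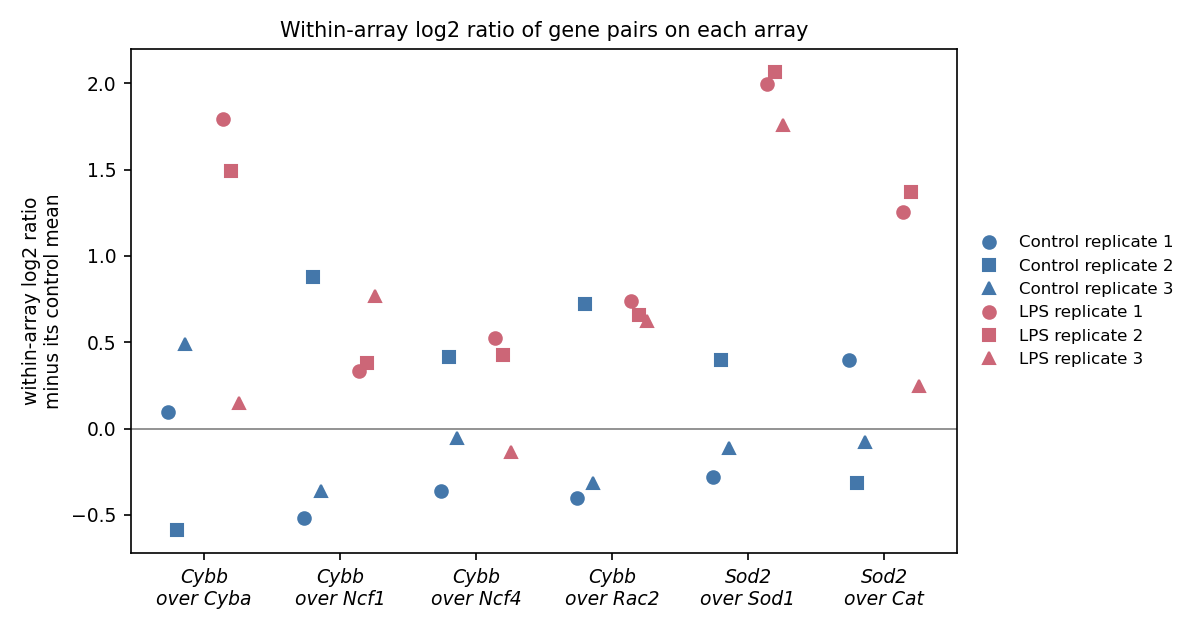
Within-array log2 ratio of 6 gene pairs, with the control mean of each pair set to 0 (vertical axis), for control arrays (blue) and LPS arrays (red), the marker giving the replicate number. Sod2 over Sod1 is the one pair in which the groups do not overlap, with a change of 1.94.

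The wider oxidase family was read from a list of 17 subunits and isoforms, 15 of which had a row of their own. Of these 15, Cybb rose, 0 fell and 14 did not pass in limma, with a median log2 fold change of 0.06, or 0.03 after quantile normalization. At an unadjusted p under 0.05, 2 (13.3%) were higher and 0 lower, beside 5.36% of all 22180 genes higher. The 5.36% was not matched for brightness, here or in the lists below, and 10891 of the 22180 genes were above background. Other catalytic isoforms were dim: Nox1, Nox3, Nox4, Duox1 and Duox2 and the partners Noxa1 and Duoxa1 were not above background. Nox4, known as a constitutively active isoform, had 3.14, 3.39 and 3.10 on the controls and 3.07, 2.32 and 2.78 on the LPS arrays (limma adjusted p = 0.83), values at the edge of background. Nox1 was at 2.06 ± 0.09 and 2.12 ± 0.05 (SD, n = 3). Cybc1, a chaperone needed for the membrane chains, was at 5.16 ± 0.26 in controls and 5.16 ± 0.27 after LPS, and its 95% interval ran from -0.49 to 0.49.

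Of 18 measured regulators of the oxidase, 0 passed in limma in either direction. At an unadjusted p under 0.05, 5 (27.8%) were higher and 0 lower, beside 5.36% of all genes higher. Of the 18 regulators 15 were above background. The median log2 fold change was 0.24, or 0.09 after quantile normalization. The smallest p belonged to Vav1, an exchange factor that activates Rac proteins, at 0.56 log2 units (SE 0.18, limma adjusted p = 0.56), and to Prex1, another Rac exchange factor, and Pik3r5, a regulatory subunit of a phosphoinositide kinase, with 0.70 and 0.90 (limma adjusted p = 0.71 for each). Without control replicate 2, Vav1, Prex1 and Pik3r5 were at 0.43, 0.45 and 0.66. Hvcn1, the proton channel that balances the charge moved by the oxidase, had 5.14, 5.05 and 5.47 on the controls and 5.60, 5.86 and 7.28 on the LPS arrays (limma adjusted p = 0.78). LPS replicate 3 stood well above the others for Hvcn1, as it did for Cyba.

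Among 13 measured dismutases, catalase and peroxidases 0 passed in limma. At an unadjusted p under 0.05, 2 (15.4%) were higher, Sod2 and Cat, and 0 lower, beside 5.36% of all genes higher. The median log2 fold change was 0.02, with 8 values above 0 and 5 below, and turned to -0.14 after quantile normalization, with 5 above and 8 below. Gpx1, the main glutathione peroxidase of the cytosol, had 8.41, 7.07 and 8.21 on the controls and 7.17, 7.44 and 7.46 on the LPS arrays, a difference of -0.54 log2 units (SE 0.35, limma adjusted p = 0.96). Its LPS arrays were below control replicates 1 and 3 and above control replicate 2, the order also seen for Sod1, and without that array the difference was -0.95 (limma adjusted p = 0.15). Sod3, the secreted dismutase, was not above background, at 2.38 ± 0.31 and 2.19 ± 0.12. Ccs, the chaperone that loads copper into Sod1, was at 4.49 ± 0.57 and 4.50 ± 0.23 (SD, n = 3), a difference of 0.01 that became -0.32 without control replicate 2. Prdx1 was not analysed here.

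Of 15 measured genes of NADPH supply, 0 passed in limma. At an unadjusted p under 0.05, 4 (26.7%) were higher and 0 lower, beside 5.36% of all genes higher. The median log2 fold change was 0.08, which turned to -0.08 after quantile normalization. Me1, the malic enzyme that makes NADPH in the cytosol, had 5.41, 6.34 and 5.73 on the controls and 7.36, 7.46 and 7.81 on the LPS arrays. Its groups did not overlap, and the difference of 1.72 log2 units (SE 0.26, limma adjusted p = 0.12) passed in 5 of 15 alternative fits, the one without control replicate 2 among them. Nadk, the kinase that makes NADP from NAD, differed by 0.92 log2 units (SE 0.17, limma adjusted p = 0.21), and Taldo1, of the pentose phosphate pathway, had 1.03 (SE 0.25, limma adjusted p = 0.35). G6pdx was not analysed here.

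Copper is a cofactor of Sod1 and manganese of Sod2. Of 10 measured genes of copper and manganese transport 0 passed in limma, while 5 were higher and 0 lower at an unadjusted p under 0.05, and the median log2 fold change was 0.49. In this list 10 of 10 genes had a change above 0, beside 12567 of 22180 genes, or 9 of 10 after quantile normalization, where the median was 0.30. Without control replicate 2, Atox1, Slc39a8 and Atp7b fell below 0, at -0.18, -0.15 and -0.04, and the rest of the list stayed above 0. Atp7b and Slc39a8 were not above background. Over all genes 1189 of 22180 were higher at an unadjusted p under 0.05. Slc11a2, a carrier of iron and manganese, had 4.88, 5.84 and 5.11 on the controls and 6.59, 6.91 and 7.57 on the LPS arrays, 1.74 log2 units more (SE 0.34, limma adjusted p = 0.23). The copper transporter family member Slc31a2 had 1.39 (SE 0.45, limma adjusted p = 0.59), with LPS replicate 3 at 9.35 and the other LPS arrays at 7.64 and 7.80. Slc11a1, the phagosomal metal carrier of macrophages, had 0.82 (SE 0.28, limma adjusted p = 0.63), again with LPS replicate 3 highest, at 10.69.

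**Figure D5:**
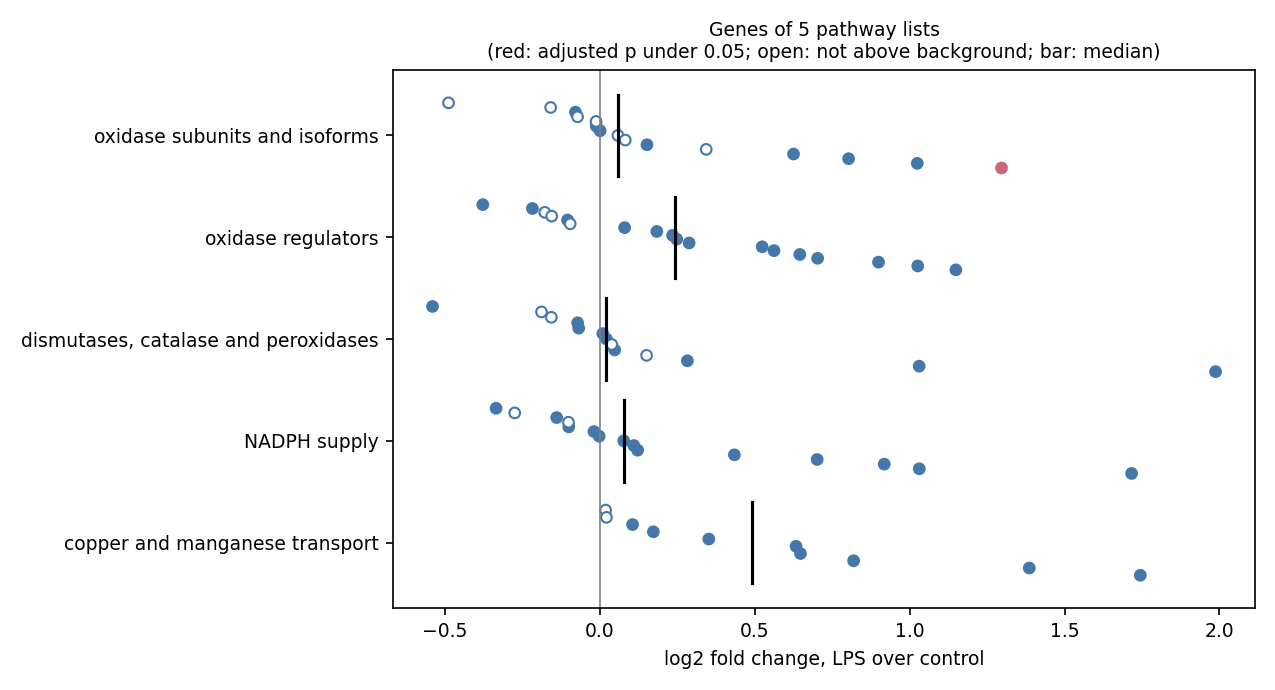
Log2 fold change of LPS over control (horizontal axis) for each measured gene of 5 lists, with genes not above background as open points, genes with an adjusted p under 0.05 in red and the list median as a black bar. Cybb is the one red point, and medians run from 0.02 for dismutases, catalase and peroxidases to 0.49 for metal transport.

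The patterns most like those of Cybb and Sod2 over the 6 arrays were sought by Pearson's r among 6972 other named genes with a mean of 5 or more. Since the arrays form 2 groups, a gene that differs between them reaches a high r on that ground, and r is given as a description. Closest to Cybb were the chemokine Cxcl2, the NF-kB inhibitor Nfkbia and the RNase family gene Zc3h12c, each with r = 0.998, and these rose by 4.96, 2.57 and 2.29 (limma adjusted p = 0.0012, 0.0054 and 0.0039). The most opposite were Eif5a, Nudt19 and Ptma, with r of -0.96, -0.95 and -0.92 and log2 fold changes of -0.14, -0.34 and -0.35, none of which passed. Closest to Sod2 were the adaptor Fyb (r = 0.997), the exchange factor Rapgef2 (r = 0.996) and Ncoa7 (r = 0.995), with log2 fold changes of 1.02, 1.16 and 0.95, and none of these passed in limma either. Opposite to Sod2 were the mitochondrially encoded ND6 (r = -0.92), Serinc3 (r = -0.90) and the splicing factor Srsf2 (r = -0.89).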

How the data were processed

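RNA of 6 samples of BV-2 cells, 3 control and 3 LPS, was measured on Affymetrix whole-transcript arrays. The log2 expression values used here are those the authors deposited, 1 per transcript cluster and array, and the submitters' processing notes name Affymetrix Expression Console as the program. Its version, background correction, normalization and genome build are not given in the sources used here, so a bias at low signal could not be checked, and the log2 scale was read from the values. The number of arrays limits the precision. Rows were named from platform annotation: of 41345 rows, 23521 have 1 symbol, 1814 several and 16010 none, and genes were named from rows of 1 symbol only, the brightest where a gene had several.

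LPS was compared with control with lmFit and eBayes of limma 3.58.1, without an intensity trend, in R 4.3.3 over all rows, with no filter, Benjamini-Hochberg adjustment over all 41345 and a threshold of 0.05. The fit was tried on simulated data with independent noise for each row and array. These data held no shift of a whole array, so they do not bear on arrays such as control replicate 2. Errors are SD for means and moderated SE for fold changes. Named genes beyond the 8 were a fixed set, up to 4 called genes or the 3 of lowest p from each pathway list, and the 3 most and least alike in pattern. Members, lists and tests were chosen with earlier results of these data known. Alternatives were quantile normalization, median centring, fewer rows, an intensity trend, array weights, a replicate block and arrays left out.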

Additional observations from a re-analysis of the deposited data

How the results depend on the processing

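The number of the 8 genes called was 1 (Cybb) and became 0 after quantile normalization, with an intensity trend, with the replicate block and in each fit with 1 array left out (0 to 0), and 2 (Cybb and Sod2) with rows of 1 symbol, with 1 row per gene and with array weights. Without control replicate 2 and LPS replicate 3 together it was 1, Sod2 in place of Cybb. The list of oxidase subunits lost its 1 call, leaving 0, after quantile normalization, with the trend, with the replicate block, without these arrays together and with any 1 array left out (0 to 0). The lists of dismutases and peroxidases and of NADPH supply went from 0 to 1 (Sod2 and Me1) with rows of 1 symbol, with 1 row per gene, with array weights and without both arrays, the NADPH list ranging from 0 to 1 with 1 array left out, and metal transport from 0 to 1 (Slc11a2) without both arrays. The regulator list kept a count of 0 in all 15 alternatives. Sod1 turned from 0.05 to -0.14 after quantile normalization, -0.21 with array weights and -0.37 without both arrays, and ranged from -0.47 to 0.34 with 1 array left out. Cyba turned from 0.15 to -0.0645 without both arrays and ranged from -0.33 to 0.49. The other 6 genes kept their sign in all 15 alternatives. With rows above background only, the fewest tested (19060), these counts stayed at 1 for the 8 genes and 0 for both of these enzyme lists. Calls over all rows moved as well, from 80 of 41345 to 63 after quantile normalization, 65 with the trend and 132 with array weights. They numbered 117 of 23521 with rows of 1 symbol, 118 of 22180 with 1 row per gene and 109 of 19060 above background. With 1 array left out, 15 to 76 rows were called higher and up to 14 lower. Without both arrays 152 were higher and 67 lower. The cause of the changes was not tested.

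Replicate numbers are shared by the groups, and r of deviations was 0.07, -0.26 and -0.22 for same-numbered arrays. For arrays of different numbers it ran from -0.14 to 0.27. With 3 arrays in each group these values depend on each other and cannot decide whether arrays were paired. The main fit took no pairs. With the replicate block, Cybb had an adjusted p = 0.28 in limma, and 7 of all rows were called in place of 80. Other rows of a gene could not be tried, since each of the 8 has 1 row.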

Other observations

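Several genes shared the array pattern of Cyba, high on control replicate 2 and on LPS replicate 3, and were singled out after their values were seen. Over the 6 arrays the genes most like Cyba were Hsp90b1, a chaperone of the endoplasmic reticulum (r = 0.997), the sterol-linked membrane protein gene Tmem97 (r = 0.995) and Slc35e1 (r = 0.991), with log2 fold changes of 0.03, 0.09 and 0.30. Most opposite to Cyba was Nif3l1 (r = -0.98). For Sod1, low on control replicate 2, the most alike were Eef2kmt, Ndufa7, a subunit of mitochondrial complex I, and Nsmce1 (each r = 0.998 or 0.997), and the least alike were Wdhd1, E2f8 and Neil3 (r = -0.98, -0.98 and -0.97), genes of DNA replication, the cell cycle and DNA repair. Closest in pattern to Ncf4 were Phf11b (r = 0.998), the immunoproteasome subunit Psmb10 (r = 0.997) and Taldo1 (r = 0.995). Their log2 fold changes were 1.51, 1.26 and 1.03, and none of these passed in limma.

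The 4 promoter windows with at least 3 matches of the interferon response type were those of Cybb, Gm33857, Washc3 and Isg15, the last a ubiquitin-like gene induced by interferon.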
